A study of Mus musculus with 24 samples.

Results

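The baseline transcriptome of the mouse cerebellum was read from the 6 control arrays that received no 4-phenylbutyrate (4PBA), of 24 arrays in the series. They were chosen by their sample titles: 2 arrays of Derlin-1 controls and 2 of Derlin-2 controls labelled vehicle and numbered 1 and 2, and 2 of Derlin-1 controls labelled a and b. All were C57BL/6 mice killed on postnatal day 28. Derlin-1 controls were homozygous for a floxed Derl1 allele and Derlin-2 controls for a floxed Derl2 allele; the nestin-driven Cre that deletes these genes belongs to the knockouts of the series. The vehicle was water, injected intraperitoneally once a day from day 14 to day 28, and the titles of the lettered arrays name neither a vehicle nor 4PBA. The 3 pairs lay on 3 different slides of 8 arrays, and the lettered slide had a scan day of its own. Within these 6 arrays, line, slide and, for the lettered pair, scan day and injection label therefore cannot be told apart. Nothing in the labels says whether the 2 arrays of a pair came from separate animals or pools, so tests measure the spread between these arrays.

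The cerebellar cortex is built from very many small granule neurons, which receive mossy fibres and send parallel fibres to the Purkinje cells, the only output neurons of the cortex. Molecular layer interneurons and Golgi cells are inhibitory, Bergmann glia ensheathe Purkinje dendrites, and oligodendrocytes myelinate the axons of the white matter. By the end of the first postnatal month the external layer of dividing granule cell progenitors has been used up, and the mature circuit relies on strong calcium handling and on oxidative energy supply.

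A level is the log2 signal of a probe minus the 75th percentile of the array, so that 0 is that percentile and 1 unit is a 2-fold difference in signal. Values after ± are SDs over the 6 arrays. The scanner software called 63.5% to 66.0% of the spots of an array well above background, and the intensity at the 75th percentile was 922 to 1068. Of 22911 named genes 15481 (67.6%) were well above background on all 6 arrays, and 5311 (23.2%) had no probe above background on any. Levels of single genes were reproducible: the median SD was 0.22 over the 6 arrays and 0.14 within pairs, and Pearson's r over the 15481 genes was 0.991 to 0.996 within pairs and 0.973 to 0.993 between them. The number of arrays limits the precision of every comparison below.

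Levels of different probes are orders of signal, not of transcript number. Among 5472 genes with at least 2 probes above background on all 6 arrays, the probes of one gene differed by a median of 2.91 (quartiles 1.52 and 4.53), and in 865 genes (15.8%) they lay within 1 of each other. A gene is represented by its brightest probe. Neighbours in an order of genes that are less than about 3 units apart are therefore within the usual spread between probes of one gene.

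The brightest signal belonged to Aldoc, the brain aldolase of astrocytes and of striped Purkinje cell zones. It was 7.89 on the lowest, 8.59 on the median and 8.79 on the highest array, and its second probe averaged 7.48. Ubb, a polyubiquitin gene, ranged from 7.91 to 8.22 with a mean of 8.02. Ppia, the cyclophilin A gene, ranged from 7.85 to 8.43 with a median of 8.26. Cox6a1, a subunit of cytochrome c oxidase, had a mean of 8.12 ± 0.13, and Pcp2, a Purkinje cell protein, 7.86 ± 0.10. The other genes among the 30 brightest included Sparc and Sparcl1, secreted matrix proteins of glia and vessels, Aldoa of glycolysis, Cox8a of the respiratory chain, and the globins Hba-a1 and Hba-a2. Kctd14 and Glrx2 followed Aldoc directly in the order, with means of 8.40 and 8.36. Exosc2, Zfp628, Gm20594 and Rn4.5s were among the 30 as well. All 30 lay at or above 7.63, and their SDs ran from 0.097 to 0.69. The 30 genes are 0.131% of all genes and held 8.31% of the summed signal, and the 1000 brightest genes held 56.2%.

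Several of the brightest names rested on 1 probe. A single probe was present for 13 of the 30 genes, so no second probe could check their level. Kctd14, Cox6a1, Pcp2, Sparcl1, Cox8a, Aldoa and Hba-a2 were among these. Of the 30 genes 17 had more than 1 probe, and in 12 of these the dimmest probe lay over 5 units below the brightest. Elk1, Ttc38, Med16, Slc10a1, Pbld1, Milr1 and Endov were of this kind, and 6 of the 17 genes had a probe that was not well above background on any of the 6 arrays. Slc10a1, a bile acid transporter of the liver, had a brightest probe with a median of 8.08 and a dimmest at -8.06. In only Aldoc and Ubb did all probes of a gene in this top group lie within 1 unit. Ordered by the dimmest probe, over genes with several probes that were all above background, the genes at the top included Aldoc, Ubb, Ppia, Hba-a1, Rps29, Atp5h, Dbi, Stmn3, Ndufa5 and Slc25a4. Among these are genes of ubiquitin, ribosomes, mitochondria and neuronal microtubules, and the ordering was chosen after the first one had been seen.

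**Figure D1:**
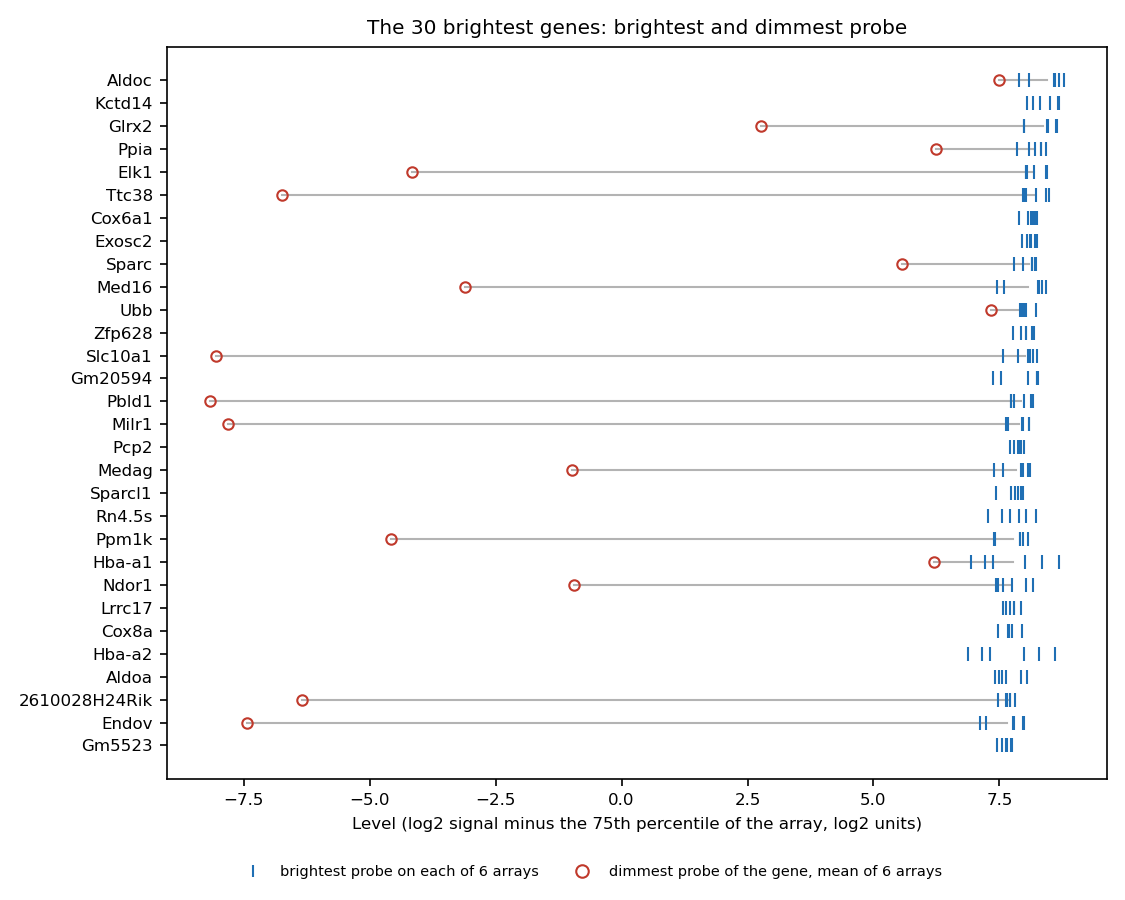
The 30 genes with the highest mean level (rows), with the level on the x axis in log2 units. Blue ticks are the 6 arrays at the brightest probe and red circles the mean of the dimmest probe where a gene has several; 12 of 17 circles lie over 5 units to the left of the ticks.

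Marker lists of the cell types put granule neurons, mature oligodendrocytes, astrocytes with Bergmann glia, and Purkinje cells at the top by the brightest probe. By the dimmest probe astrocytes (95.7th percentile of genes) lay above granule neurons (94.3) and blood cells (89.0) above Purkinje cells (86.5), and by the mean of all probes astrocytes (95.8) and oligodendrocytes (95.4) lay above granule neurons (94.3). All 16 granule markers were above background on all 6 arrays, with a median level of 4.45 against -1.85 over all genes on the array. Zic1, a transcription factor of the granule lineage, was 6.66 at its lowest, 7.10 at its median and 7.21 at its highest, with the lettered pair the lowest. Cbln1, the secreted organiser of parallel fibre synapses, spanned 6.56 to 7.29 with a median of 7.10. Gabra6 and Gabrd, subunits of the extrasynaptic GABA-A receptor of granule cells, averaged 4.45 ± 0.18 and 4.79 ± 0.07, and Grin2c, the NMDA receptor subunit of mature granule cells, 4.45 ± 0.13. Cbln3, a partner of Cbln1, was the dimmest member at 0.91 ± 0.10. In bulk RNA, fewer cells of a type and less RNA per cell cannot be told apart.

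Purkinje markers reached further up and further down than granule markers. The 16 genes had a median of 3.82, and all were above background on all 6 arrays. Pcp2 ranged from 7.71 to 7.98 with a median of 7.88. Pcp4, a calmodulin regulator, ranged from 6.86 to 7.33 around 7.19. Itpr1, the inositol trisphosphate receptor, averaged 6.94 ± 0.20, Slc1a6, the Purkinje glutamate transporter, 6.38 ± 0.15, and Calb1, the calcium buffer, 6.22 ± 0.05. At the other end stood Skor2 at -2.87 ± 0.29 and Foxp2 at -4.05 ± 0.86. Foxp2 did not vary evenly: the 4 numbered arrays lay between -3.53 and -3.46 and the 2 lettered arrays at -5.07 and -5.24, without overlap. The Purkinje list held 0.932% of the summed signal and the granule list 0.632%, with 16 genes each.

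Markers of inhibitory interneurons had a median of 0.96, and 11 of 12 were detected on all 6 arrays. Pvalb, the calcium buffer of basket, stellate and Purkinje cells, averaged 6.94 ± 0.15, Slc32a1, the vesicular GABA transporter, 5.99 ± 0.16, and Gad1, a GABA-synthesising enzyme, 3.93 ± 0.04. Slc6a5, the glycine transporter of Golgi cells, was well above background on no array. Among genes of nuclear and unipolar brush neurons the neurofilaments led, with Nefl at 4.21 ± 0.17, while Eomes of unipolar brush cells stood at 0.13 ± 0.28 and Tbr1 of nuclear neurons at -3.09 ± 0.31.

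Both macroglial types were bright. Mature oligodendrocyte markers had a median of 4.34 with 16 of 17 detected on all 6 arrays. Ptgds, a prostaglandin synthase of oligodendrocytes and meninges, ranged from 7.31 to 7.77 with a median of 7.65. Cnp and Mag, myelin proteins, averaged 4.48 ± 0.21 and 4.38 ± 0.25. Myrf, the myelin gene regulator, was above background on 2 arrays, and its single probe averaged -6.68. Astrocyte and Bergmann glia markers had a median of 3.95 with all 19 detected, led after Aldoc by Apoe (6.81 ± 0.15) and S100b (6.43 ± 0.19). Slc1a3, the glutamate transporter of Bergmann glia, averaged 4.89 ± 0.25, Gdf10, a secreted factor of Bergmann glia, 4.76 ± 0.53, and Gfap, the astrocyte filament, 1.83 ± 0.23. Precursors of oligodendrocytes were lower: their 13 markers had a median of -0.36, with Gpr17 at 3.12 ± 0.18 and Pdgfra at -0.36 ± 0.14.

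**Figure D2:**
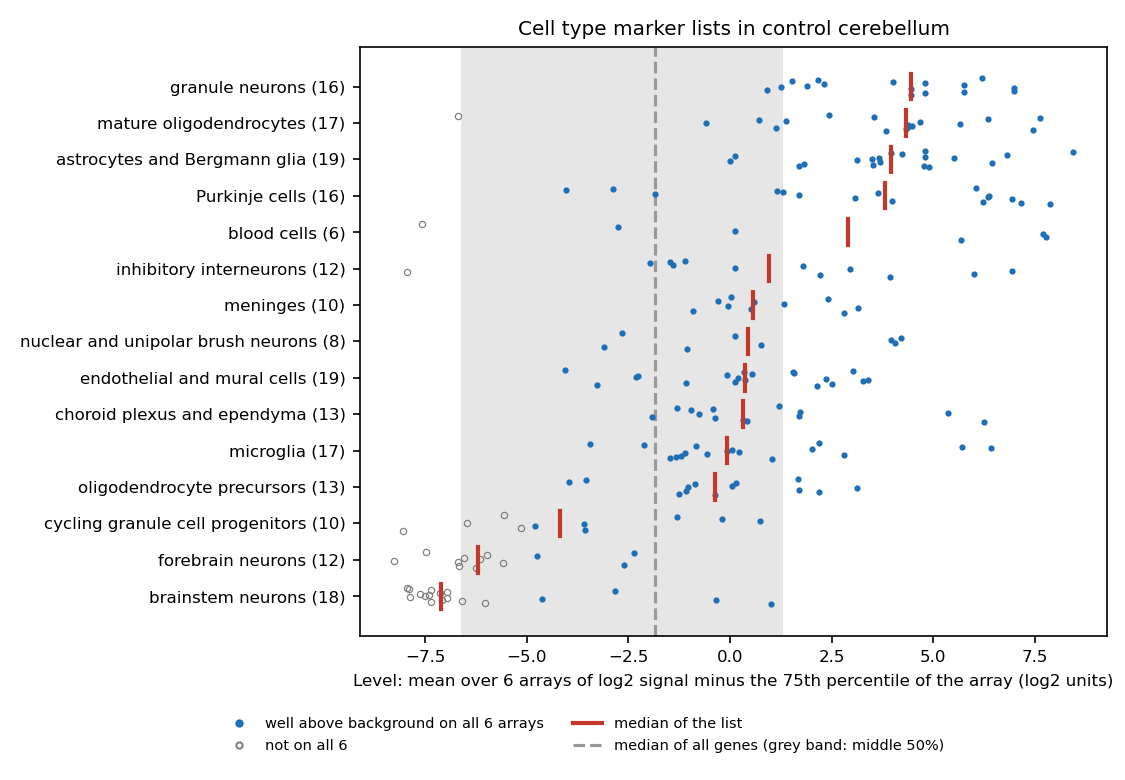
Mean levels over 6 arrays (x axis, log2 units) of the members of 15 cell type lists, ordered by the median of the list. Filled points were above background on all 6 arrays. The median runs from 4.45 for granule neurons to -7.11 for brainstem neurons, and the dashed line at -1.85 is the median of all genes.

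Microglia, vessels and meninges gave mid-range signals. The 17 microglial markers had a median of -0.08. Siglech and Itgam were far above the others at 6.43 and 5.70, but their second probes averaged -5.67 and -5.34. Csf1r, the receptor that microglia need to survive, averaged 2.81 ± 0.16 and P2ry12 -1.49 ± 0.25. Endothelial and mural markers had a median of 0.36, from Slc2a1, the glucose transporter of the blood-brain barrier, at 3.40 ± 0.36 to Myh11 of smooth muscle at -4.05 ± 0.26. The 10 meningeal markers had a median of 0.56, with Col1a2 at 3.15 ± 0.13.

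Most markers of dividing progenitors and of other brain regions were not detected on all 6 arrays or lay below the median of detected genes. Of 10 markers of cycling granule cell progenitors 6 were detected on all 6 arrays, and their median was -4.19. Atoh1, which specifies granule cell progenitors, was well above background on no array, Mki67, a marker of proliferating cells, averaged -3.57 ± 0.22, and Gli1, a target of hedgehog signalling also active in Bergmann glia, 0.74 ± 0.23. Of 12 forebrain neuron genes 3 were detected on all 6 arrays: Adora2a, Neurod6 and Drd1. Of 18 brainstem neuron genes 4 were: Hoxb3, Slc5a7, Chat, at -0.34 ± 1.33, and Th, the tyrosine hydroxylase of catecholamine neurons, which was the brightest at 1.02 ± 0.69. Of 39 HOX genes, which pattern the hindbrain and spinal cord, 2 were detected on all 6 arrays, Hoxb3 at -2.84 ± 0.19 and Hoxa9 at -5.11 ± 0.36. The 5 ZIC factors, by contrast, were all detected, with Zic1 far above Zic2 at 1.25 and Zic5 at -2.92, and so were the 4 NFI factors, with Nfib highest at 4.31 ± 0.09.

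Among pathways, glycolysis, the respiratory chain and cytosolic ribosomal proteins had the highest medians by the brightest probe, an order that turned with the choice of probe. The 16 glycolysis genes had a median of 5.83, at the 98.9th percentile of all genes, and all were detected. After Aldoc came Aldoa, at 7.42 on the lowest, 7.59 on the median and 8.05 on the highest array, and Gapdh, at 7.40 ± 0.18; the liver-type phosphofructokinase Pfkl was lowest at 0.24 ± 0.32. The 82 genes of the respiratory chain and ATP synthase had a median of 5.34 and took 4.58% of the summed signal with 0.358% of the genes. Cox6a1, Cox8a and Atp5b stood above 7.3, and Cox8c, a testis subunit, was not detected on any array. Tricarboxylic acid cycle genes had a median of 4.19, led by Mdh2 at 6.91 ± 0.15.

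The 85 cytosolic ribosomal protein genes had a median of 5.19 and held 3.90% of the signal. Rpl38 averaged 6.62 ± 0.11 and Rps10 6.62 ± 0.18, while Rpl10l, a retrogene of testis, was not detected on any array. Mitochondrial ribosomal proteins were lower, with a median of 2.53 over 78 genes. Proteasome genes had a median of 3.35, translation factors 3.02 and tubulins 3.66. Cholesterol synthesis had a median of 2.42, with Hmgcs1, which makes its precursor, at 4.66 ± 0.10.

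Genes of the presynaptic side were brighter than postsynaptic ones by their medians. The 27 genes of vesicles and release had a median of 3.43. Cplx2, a clamp of the fusion machinery, was the brightest at 6.59 but spanned 5.45 to 7.33; its 4 numbered arrays lay between 6.91 and 7.33 and its 2 lettered arrays at 5.45 and 5.61. Rab3a, a vesicle GTPase, averaged 6.40 ± 0.09, and Snap25, a fusion protein of the presynaptic membrane, 6.01 ± 0.20. The vesicular glutamate transporters Slc17a7 and Slc17a6 stood at 1.53 ± 0.22 and -1.06 ± 0.32. Postsynaptic scaffold genes had a median of 1.66, with Camk2b, the kinase subunit that prevails in cerebellum, at 5.94 ± 0.54 and Camk2a, which prevails in forebrain, at 0.43 ± 0.36.

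Receptor and channel families spanned wide ranges of level. Of 18 ionotropic glutamate receptor genes all were detected and 12 lay above the 75th percentile of spots, with Gria1, an AMPA receptor subunit of Bergmann glia, at 5.12 ± 0.13 and Grid1 lowest at -4.04 ± 0.42. Grm4, a metabotropic receptor of parallel fibre terminals, averaged 0.51 ± 0.40. GABA-A receptors had a median of 0.24 over 19 genes but Gabrd and Gabra6 lay above 4.4. Glrb, the anchoring subunit of glycine receptors, averaged 4.41 ± 0.22, while Glra3 was not detected on any array. Cacna1a, the channel of P-type calcium current, averaged 4.12 ± 0.14, Kcna1, a potassium channel of basket cell terminals, 4.79 ± 0.18, and Scn2a, a sodium channel, 3.95 ± 0.15. Calcium binding and signalling genes had a median of 4.60, and Nrgn, a forebrain calmodulin-binding protein, was the lowest at -3.10 ± 0.30.

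**Figure D3:**
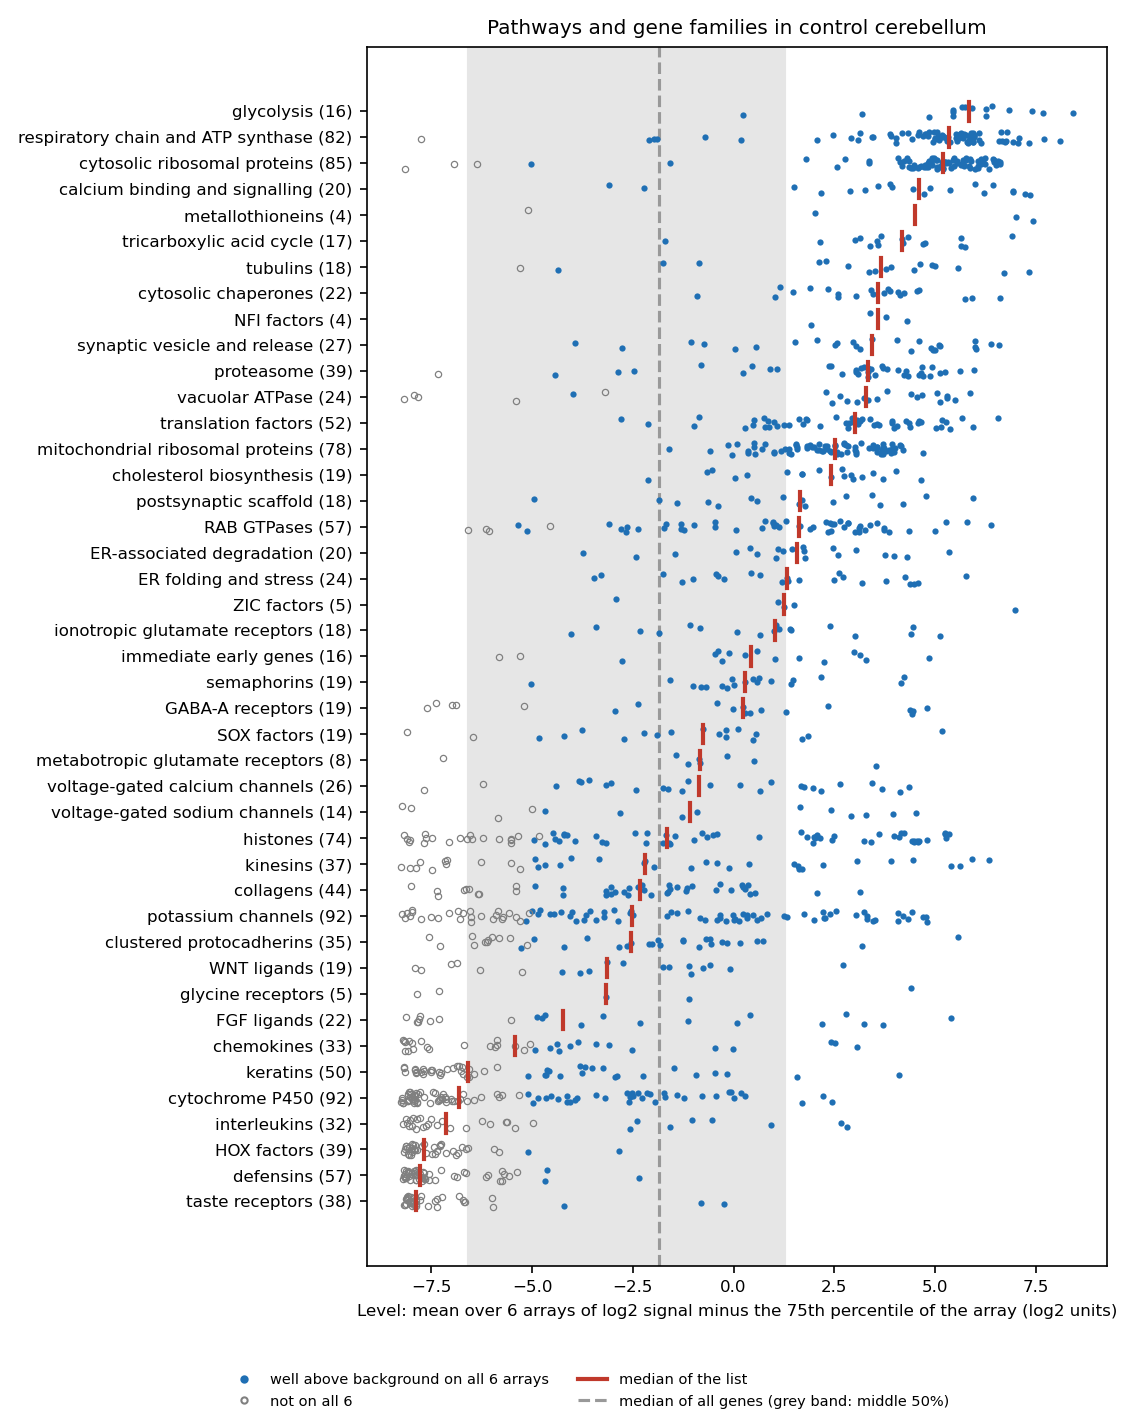
Mean levels over 6 arrays (x axis, log2 units) of pathway and gene family members, ordered by the median of the list, with the number of genes on the array in brackets. Glycolysis, at 5.83, the respiratory chain, at 5.34, and cytosolic ribosomal proteins, at 5.19, lie at the top, and taste receptors, defensins and HOX factors at the bottom of the lists drawn. The olfactory and vomeronasal receptors, with medians of -7.86 and -7.87, are not drawn.

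The endoplasmic reticulum (ER) folds secreted and membrane proteins; misfolded ones are pulled back into the cytosol and degraded, and Derlins are membrane proteins of that exit route. The mice of the series carry floxed Derlin genes, so their baseline is given here. Derl1 was 0.85 at its lowest, 1.04 at its median and 1.23 at its highest. Derl2 ranged from 1.45 to 2.12 with a median of 1.83 by its brighter probe. The 2 arrays of the line floxed for Derl2 were the lowest, at 1.45 and 1.56, and did not overlap with the 4 Derlin-1 arrays (1.82 to 2.12). The difference between the vehicle pairs was -0.36, and -0.37 with 4PBA, and Derl2 was not among the genes called in the comparison of the vehicle pairs. Its other probe averaged -0.36, with overlapping arrays of the lines. Derl3, the member of secretory tissues, ranged from -2.99 to -1.68 with a median of -2.50. Each Derlin is read by other probes, so their order of signal is no order of transcript number. Of the other ER-associated degradation genes, all 20 on the list being detected, Vcp, the extracting ATPase, led at 5.34 ± 0.35, followed by the ubiquitin ligase complex of Sel1l (4.29 ± 0.20) and Syvn1 (3.99 ± 0.12), and Edem2 was lowest at -3.75 ± 0.51. The list had a median of 1.58.

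The 24 genes of ER folding and stress had a median of 1.33 and were all detected. The chaperones Canx, Hsp90b1 and Hspa5 (BiP) averaged 4.58 ± 0.12, 4.48 ± 0.10 and 4.38 ± 0.14. Atf4, a stress transcription factor regulated at translation, was brighter, at 5.78 ± 0.22. Its targets of stress, Ddit3 and Trib3, stood at -0.43 ± 0.14 and -1.75 ± 0.44. Hyou1, another ER chaperone, was the lowest, at -3.47 ± 0.21.

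Promoters are shown because some of these genes hold a motif that the levels did not use, the ER stress response element, the letters CCAAT and CCACG with any 9 bases between them, searched on both strands in the 250 bases before the RefSeq start (first listed start of a gene, build GRCm38.p6). It was present in 7 of the 21 ER folding genes with a promoter entry (33.3%) and in 2 of 16 genes of ER-associated degradation (12.5%). Of all 27025 windows 33 held it (0.122%), and of the 18077 windows of genes on the array 28 did (0.155%). The 7 were Canx, Hsp90b1, Hspa5, Pdia6, Calr, Creld2 and Dnajc3, and the 2 were Syvn1 and Derl3, so bright and dim genes both carried it. The motif is in capitals in the sequences of Hspa5 (chr2:34771840-34772089, plus strand), Hsp90b1 (chr10:86705445-86705694, minus strand), Syvn1 (chr19:6046326-6046575, plus strand) and Derl3 (chr10:75893148-75893397, plus strand), each written 5′ to 3′ on the strand of the gene and ending at the base before the start:
Hspa5: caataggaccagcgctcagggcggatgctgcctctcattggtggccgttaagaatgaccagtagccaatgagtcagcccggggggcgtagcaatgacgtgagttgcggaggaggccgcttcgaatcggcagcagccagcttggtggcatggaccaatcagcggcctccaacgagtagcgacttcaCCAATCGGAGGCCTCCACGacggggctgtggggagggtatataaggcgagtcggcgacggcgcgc
Hsp90b1: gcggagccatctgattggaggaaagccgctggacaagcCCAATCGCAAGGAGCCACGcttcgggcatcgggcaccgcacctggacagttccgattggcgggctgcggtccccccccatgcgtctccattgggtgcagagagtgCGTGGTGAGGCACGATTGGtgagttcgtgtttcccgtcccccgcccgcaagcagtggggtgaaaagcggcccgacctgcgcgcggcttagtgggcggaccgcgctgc
Syvn1: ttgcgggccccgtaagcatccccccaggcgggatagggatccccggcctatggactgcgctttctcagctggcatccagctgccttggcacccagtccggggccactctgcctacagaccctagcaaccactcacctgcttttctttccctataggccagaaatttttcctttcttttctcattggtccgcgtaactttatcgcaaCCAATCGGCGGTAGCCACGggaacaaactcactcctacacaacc
Derl3: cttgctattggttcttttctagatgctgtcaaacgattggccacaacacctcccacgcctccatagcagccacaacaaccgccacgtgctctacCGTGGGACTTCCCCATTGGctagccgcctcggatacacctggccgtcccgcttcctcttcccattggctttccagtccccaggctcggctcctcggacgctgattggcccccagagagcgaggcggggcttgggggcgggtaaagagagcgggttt
Hsp90b1 holds the motif on both strands at separate places, and Derl3 holds it on the other strand. A match of letters is a description and no measure of binding.

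A second motif was the core of nuclear respiratory factor 1 sites, GCGCA and GCGC with 1 base between them, on both strands. It was in 12 of 67 respiratory chain promoters (17.9%), 3 of 14 of the tricarboxylic acid cycle (21.4%) and 6 of 32 of the proteasome (18.8%). It was also in 10 of 69 of mitochondrial ribosomal proteins (14.5%), 4 of 22 of synaptic vesicle genes (18.2%) and 1 of 16 of glycolysis (6.25%). The share was 3.86% over all windows and 5.32% over the windows of genes on the array. The motif itself contains C followed by G. The median count of such CG pairs per window was, in the order of the lists, 14, 16.5, 14.5, 17, 14 and 13. It was 6 over all windows and 10 over genes on the array. The part of CG content in these shares was not tested. The promoter of Cox6a1 (chr5:115348959-115349208, minus strand), the brightest gene of the respiratory chain here, is shown with the motif in capitals; it holds the letters at 2 places, of which the first reads the same way on both strands:
Cox6a1: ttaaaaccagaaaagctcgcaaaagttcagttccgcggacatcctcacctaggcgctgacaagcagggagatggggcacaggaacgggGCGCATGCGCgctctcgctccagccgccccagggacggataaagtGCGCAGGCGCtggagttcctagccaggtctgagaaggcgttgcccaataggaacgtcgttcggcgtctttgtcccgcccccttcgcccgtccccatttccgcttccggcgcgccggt
The letters TATAAA, searched on both strands anywhere in the 250 bases, were in 357 of 913 promoters of olfactory receptors (39.1%), a family at the bottom of the levels. They were in 24 of 68 promoters of the mid-level histones (35.3%) and in 13.0% of all windows. Both families have windows poorer in G and C, with medians of 34% for olfactory receptors and 44.8% for histones against 52% over all windows. The part of base composition in these shares was not tested.

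Most genes of the olfactory, vomeronasal and taste receptor families and of the defensins were well above background on no array by any probe: 802 of 1070, 199 of 258, 31 of 38 and 42 of 57. Of 1070 olfactory receptor genes 80 were detected on all 6 arrays, and the median was -7.86. The brightest, Olfr173, was 1.69 at its lowest, 2.84 at its median and 3.02 at its highest. Of 258 vomeronasal receptors the brightest was Vmn1r240, at 3.64 ± 0.56. Keratins, defensins, cytochrome P450 genes and interleukins had medians between -7.79 and -6.60, but 20 of 50 keratins and 37 of 92 cytochrome P450 genes were detected on all 6 arrays, and 23 and 45 were on none by any probe. Of the 4 metallothioneins, Mt1 averaged 7.43 ± 0.22, Mt2 lay between 6.58 and 7.27, Mt3 averaged 2.03 ± 0.33, and Mt4 was above background on 5 arrays at -5.10 ± 0.72. Xist, the transcript of the inactive X chromosome, was detected on all 6 arrays, between -3.38 and -2.17, and Ddx3y, Eif2s3y, Kdm5d and Uty of the Y chromosome were well above background on none.

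The lists of choroid plexus with ependyma and of blood cells varied most over the 6 arrays by the median of their members. On the array Derlin-1 control b the 13 choroid plexus and ependyma genes lay a median of 1.53 below their own means, and 11 of them had their lowest level there. Ttr, the transthyretin of choroid plexus epithelium, was 6.34 and 7.10 on the numbered Derlin-1 arrays, 6.89 and 7.18 on the Derlin-2 arrays, 6.90 on lettered array a and 3.06 on lettered array b. Aqp1, a water channel of the same epithelium, was -4.07 on array b and between -0.92 and 0.37 on the others, and Kl was -3.77 against -0.27 to 0.69. Of the genes of ciliated ependyma, Foxj1 was -1.37 on array b, below its range of -1.06 to -0.75 on the others, and Ccdc153 was -0.25, within its range of -0.64 to -0.11. Without array b, Ttr ranged from 6.34 to 7.18.

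Globin transcripts ranged over almost 2 units. Hba-a1 was 7.36 and 8.69 on the numbered Derlin-1 arrays, 8.004 and 8.346 on the Derlin-2 arrays, and 7.22 and 6.94 on the lettered arrays, and Hbb-bt followed at 5.33, 6.68, 5.91, 6.19, 5.17 and 4.87. The array Derlin-1 vehicle 2 was the highest for both and the lettered arrays the lowest. Alas2, the haem synthesis enzyme of red cell precursors, was also highest on vehicle 2, at 1.22. The medians of the blood list lay from 0.82 below to 0.93 above the means of its members. In the other lists with at least 5 detected members, 52 lists being examined in all, the median moved by at most 0.66 between arrays.

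**Figure D4:**
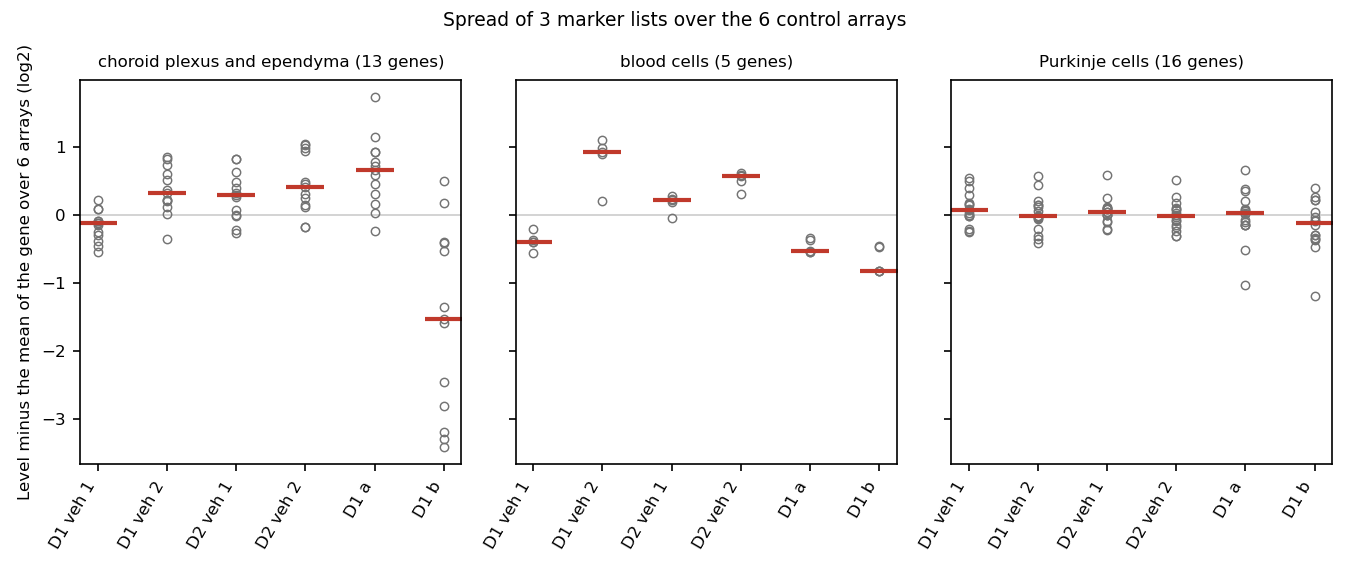
Level of each gene minus its own mean (y axis, log2 units) on the 6 arrays for 3 lists; D1 and D2 are Derlin-1 and Derlin-2 controls, veh is vehicle, and red bars are medians. The choroid plexus list drops to a median of -1.53 on Derlin-1 control b and the blood list runs from -0.82 to 0.93, while the medians of the Purkinje list lie between -0.12 and 0.08 and its lowest member reaches -1.20.

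Whether the 2 floxed lines share 1 baseline was asked by comparing the vehicle pairs of the same scan day, which differ in line and slide. Of 16999 genes tested 41 (0.241%) differed between Derlin-2 and Derlin-1 controls (limma over all 24 arrays, Benjamini-Hochberg adjusted p under 0.05), 34 higher (0.2%) and 7 lower (0.0412%) in Derlin-2, and 23 of the 41 were above background on all 4 arrays compared. The split rested on the Derlin-1 arrays: 26 of 48 calls were higher without Derlin-1 vehicle 1 and 12 of 20 without Derlin-1 vehicle 2. No member of the 25 marker and pathway lists was among them, and none of the 35 families had one outside the olfactory and vomeronasal receptors, which are not counted because members could pass the filter through the group where they are high. In the 4 numbered control arrays that received 4PBA on the same slides, 20 of these 23 genes differed in the same direction. The share was 61.5% over the 15690 genes tested that were above background on the 4 arrays of the vehicle comparison. The 2 comparisons share no sample, but the fit takes 1 spread per gene from all 24 arrays, so their calls are not independent. Of the 23 genes 8 were called with 4PBA too, where 31 genes (0.182%) were called in all, 18 higher (0.106%) and 13 lower (0.0765%). That split turned with 1 array, from 20 of 86 higher without the numbered Derlin-1 4PBA array 1 to 60 of 71 without the Derlin-2 4PBA array 2.

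Among the called genes above background on all 4 arrays compared, the gene that differed most was Sv2c, a synaptic vesicle protein of a restricted set of neurons. Its level was -4.14 and -4.06 on the Derlin-1 vehicle arrays, -0.49 and 0.22 on the Derlin-2 arrays, and -5.29 and -4.70 on the lettered Derlin-1 arrays. The Derlin-2 pair stood above all 4 Derlin-1 arrays, by 3.97 ± 0.46 (SE) over the vehicle pair (limma, adjusted p = 0.00128) and by 4.34 in the controls with 4PBA (adjusted p = 0.000301). F2r, the thrombin receptor gene, has only F2rl2 and Iqgap2 between it and Sv2c among coding genes of the RefSeq order. F2r was -0.97 and -1.12, then 0.25 and 0.99, and -0.99 and -1.04 in the same order of arrays. It too was higher in the Derlin-2 pair, by 1.66 ± 0.25 (SE; limma, adjusted p = 0.0118) and by 1.51 with 4PBA (adjusted p = 0.0206). Iqgap2 was not well above background on any of the 6 arrays, and F2rl2 was above it on 1. Beyond Sv2c, Poc5 was above background on all 6 arrays and differed by 0.24 (limma, adjusted p = 0.73).

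Lgi3, a secreted protein of myelinating glia and neurons, was 1.57 and 1.62 in the numbered Derlin-1 pair, 2.95 and 2.79 in the Derlin-2 pair and 1.95 and 1.98 in the lettered pair. The Derlin-2 arrays were again the highest, by 1.27 ± 0.14 (SE) over the vehicle pair (limma, adjusted p = 0.000925). Atp8a1, a phospholipid flippase, went the other way, at 2.004 and 2.059, then 1.15 and 1.27, and 1.88 and 2.19, a fall by 0.82 (limma, adjusted p = 0.00299) that was -0.85 with 4PBA. The class II histocompatibility genes H2-Ab1 and H2-Eb1, which present antigen and are separated by 1 coding gene, were higher in the Derlin-2 pair by 1.08 and 1.09 (limma, adjusted p = 0.0197 and 0.0141), and by 0.36 and 0.56 with 4PBA (adjusted p = 0.658 and 0.329). Gm8013, a predicted gene, differed by 3.35 without 4PBA and by -0.0036 with it. Its log2 intensity was 8.83 and 8.37 on the Derlin-2 vehicle controls but 5.59 and 5.38 on the Derlin-2 vehicle knockouts of the same slide. Of the 16 genes named by the rule for this comparison, 4 kept their call whichever array was left out: Sv2c, Gm8013, Lgi3 and Atp8a1. Gm8013 lost it with the values of the authors' deposited table (limma, adjusted p = 0.163), where its difference was as large, at 3.37. That table keeps a Gm8013 spot of the array Derlin-1 knockout vehicle 2 that the scanner software marked as an outlier and that was left out here, with a log2 intensity of 8.89 against 5.03 on knockout vehicle 1. The call of F2r was lost without Derlin-1 vehicle 2 (limma, adjusted p = 0.0994), without Derlin-2 vehicle 2 (limma, adjusted p = 0.105) and with only the 12 control arrays in the fit (limma, adjusted p = 0.0672). H2-Ab1 and H2-Eb1 each lost the call in 3 of 4 fits that left out 1 array, with adjusted p up to 0.203 and 0.159 (limma), and Atp8a1 lost it with only the 12 control arrays (limma, adjusted p = 0.112). Over all genes the count of calls went from 41 to 20 without Derlin-1 vehicle 2 and to 71 without Derlin-2 vehicle 1.

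**Figure D5:**
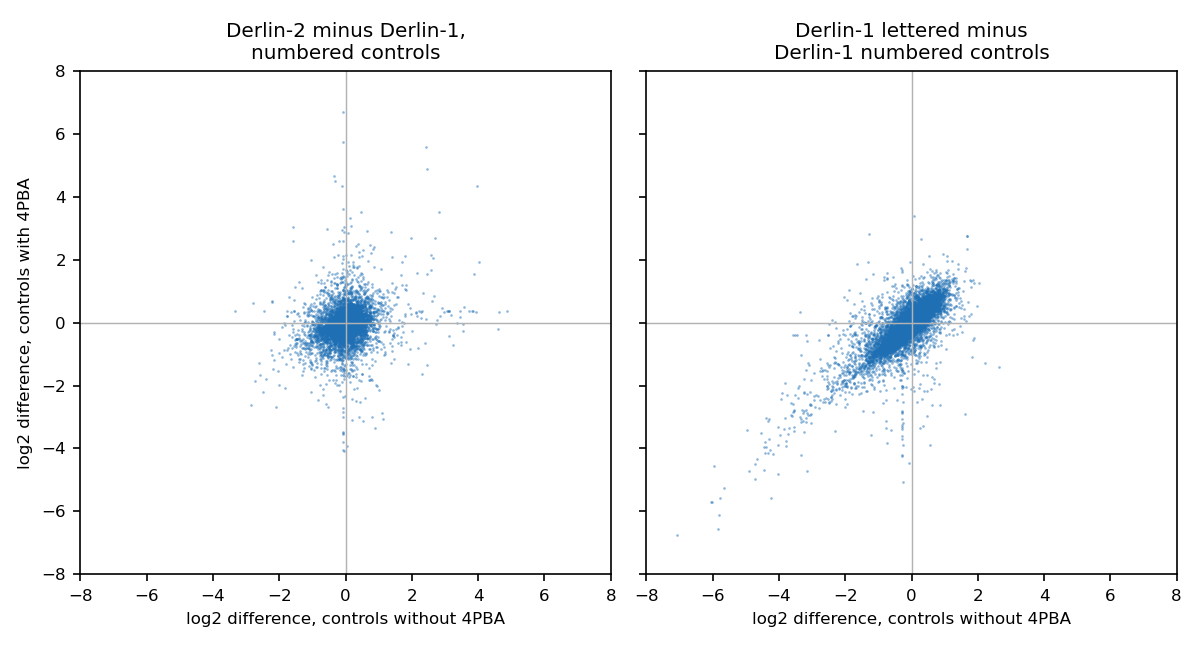
Each point is a gene; the x axis is the log2 difference between controls without 4PBA and the y axis the same difference between controls with 4PBA on the same slides. Points of the left plot, for 2 slides scanned on the same day, form a round cloud (Pearson's r = 0.25), and those of the right plot, for the lettered slide, a diagonal one (r = 0.79).

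The lettered Derlin-1 pair stood apart from both vehicle pairs. Against the numbered Derlin-1 controls, which are the same line, 4395 of 17000 genes (25.9%) differed (limma, adjusted p under 0.05). Of these, 2061 (12.1%) were higher and 2334 (13.7%) lower in the lettered pair. That balance turned with quantile normalization, where 2372 of 4387 calls were higher. Against the Derlin-2 pair 4888 of 16999 (28.8%) differed; this comparison shares the lettered arrays. Of the 4199 genes among them that were above background on all 4 arrays compared, 4193 differed in the same direction between the lettered and numbered Derlin-1 controls with 4PBA, against 86.6% of all genes tested that were above background on those arrays. Of the 4395 genes 3503 were called there too, 79.7% of the 4395 and 71.1% of the 4925 genes (29%) called with 4PBA. Both sets of calls take the spread of a gene from the same fit, so they are not independent. The difference between the 2 sets of Derlin-1 controls was thus present in both sets of arrays, without 4PBA and with it. Slide, scan day and injection label differ together in the set without 4PBA, and slide and scan day do in the set with it. The cause of the difference was not tested. Without Derlin-1 vehicle 1 the count fell from 4395 to 2854, and without Derlin-2 vehicle 2 the count against the Derlin-2 pair fell from 4888 to 2368 and without Derlin-1 control b to 2997.

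Among genes above background on all 4 arrays compared, the largest of these differences were losses of signal. Ces2f, a carboxylesterase gene, was 0.15 and 0.58 on the numbered Derlin-1 arrays, 0.40 and 0.24 on the Derlin-2 arrays and -5.67 and -5.63 on the lettered arrays. Pgc, a pepsinogen of stomach, was -0.26 and 0.52, 0.18 and 0.08, and -4.73 and -4.84. H2-Ob, a class II histocompatibility gene of B cells, was 0.30 and 0.98, 0.67 and 0.31, and -3.86 and -4.30. The 4 numbered arrays and the 2 lettered ones were widely separated in all 3 genes, by -6.01, -4.91 and -4.72 against the Derlin-1 vehicle pair (limma, adjusted p = 3.73e-06, 2.71e-06 and 1.29e-07). Gstm4, a glutathione transferase, showed the largest difference upward among genes detected on all 4 arrays, by 1.59 ± 0.15 (SE; limma, adjusted p = 1.72e-05).

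The counts of calls in lists and families are to be read against 12.1% higher and 13.7% lower over all genes, a balance that turned with quantile normalization. Of 37 collagens 9 were higher and 1 lower in the lettered pair, with a median difference of 0.34 against -0.01 over all genes; the 10 calls are close to the share of all genes called. Olfactory and vomeronasal receptors are again not counted. Of the 5 ZIC factors 3 were lower, Zic1 by 0.41 and Zic2 by 1.19 among them on the log2 scale. Both are also granule markers, and of the 16 granule neuron genes 5 were lower and 1 higher. Of 19 genes of astrocytes and Bergmann glia 4 were lower and none higher, of 16 Purkinje cell genes 4 were lower and 3 higher, and of 17 genes of mature oligodendrocytes 1 was lower and 4 higher. The part of these cell types in the other differences was not tested. Of 16 glycolysis genes 6 were higher and Aldoc was lower, and of 18 postsynaptic genes 3 were higher and 6 lower, with Camk2b at -0.80 (limma, adjusted p = 0.000161). The ER folding list had 1 gene higher, Pdia3, and 1 lower, Eif2ak3, of 24, below the share over all genes, and ER-associated degradation had 3 higher and 4 lower of 20, Vcp at -0.69 among the lower. On all 6 arrays the spike-in slope lay between 0.960 and 0.989.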

How the data were processed

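Total RNA of the cerebellum was hybridised to 1-colour Agilent arrays, 1 per sample, and read with Agilent Feature Extraction 10.7.1.1, per the file headers and the submitters' processing notes. The deposited spot intensity was already background-subtracted by that software, and no scaling between arrays is recorded. The header names build mm9, while promoter windows and their coordinates are those of RefSeq on GRCm38.p6. The authors' deposited table of intensity values differed from the scanner values by at most 1.74e-06 on the log2 scale at probes with 1 spot not marked as an outlier; it also holds the marked spots, which were left out here.

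The 59305 spots per array were reduced to 56605 probes, repeated spots being averaged after outlier-marked spots were left out. A level is log2 intensity minus the array's 75th percentile. Probes were named by RefSeq accession (32994 with a symbol, 23611 without), and the brightest probe over the 24 arrays stood for a gene. Comparisons came from 1 limma 3.58.1 fit (R 4.3.3) over 24 arrays and their groups, with Benjamini-Hochberg adjustment and a threshold of 0.05, on genes well above background on both arrays of at least 1 group. The fit was tested on simulated data.

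The genes named were the 30 brightest, the 3 highest and the lowest member of each list or family with others described by role, the 10 largest called changes in each direction, the 10 most variable genes, the Derlins and sex-linked genes; some of these genes are not reported here. Members and lists were chosen with earlier results of these data known. Alternatives were background correction, normalization, probe choice, filter, deposited table, samples in the fit, a replicate block and leaving out each array. The planned correction on mean signals used median signals, because the files hold no mean signal column. Over 28 pairs of numbered groups the deviations of same-numbered arrays correlated from -0.153 to 0.346 (0.077 for the vehicle controls), not above 0.1 in every pair, so numbers were not treated as pairs. Background and array number limit precision, no spot being saturated, and no read depth applies.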

Additional observations from a re-analysis of the deposited data

Results flagged for a closer look

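Of 212 values tested over the 6 arrays (list medians, array measures and levels of the genes named), 14 had 1 array far from the other 5; chance marks about 1 in 20 (5%). Of these, 8 were low on the array Derlin-1 control b. Ttr was 3.06 there against 6.34 to 7.18 on the others, Kl -3.77 against -0.27 to 0.69, and Aqp1 -4.07 against -0.92 to 0.37, all genes of choroid plexus epithelium. Slc1a6 of Purkinje cells was 6.09 there against 6.35 to 6.50 and Gpr17 of oligodendrocyte precursors 2.76 against 3.11 to 3.28. Mdh2 was 6.62 there against 6.89 to 7.04 and Rps10 6.28 against 6.60 to 6.78. The median of the tricarboxylic acid cycle list was also low on that array, 3.85 against 4.16 to 4.28, although its 17 genes had a median deviation from their own means of only -0.018 there.

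On the array Derlin-1 control a, the myelin genes Cnp and Mag were high, 4.89 against 4.33 to 4.49 and 4.87 against 4.20 to 4.41, and so was the median of the vacuolar ATPase list, 3.66 against 3.13 to 3.31. Single arrays also stood apart for Canx (4.36 on Derlin-2 vehicle 1, others 4.56 to 4.67), Gabrd (4.66 on Derlin-2 vehicle 2, others 4.79 to 4.86) and Hyou1 (-3.07 on Derlin-1 vehicle 2, others -3.62 to -3.48).

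The difference of Gm8013 between Derlin-2 and Derlin-1 controls was not the same without and with 4PBA: the interaction was -3.36 on the log2 scale (limma, adjusted p = 0.00634), from 3.35 without 4PBA to -0.0036 with it. Its call without 4PBA was lost with the authors' deposited table of values (limma, adjusted p = 0.163), which keeps a spot marked as an outlier on the array Derlin-1 knockout vehicle 2; the difference there was 3.37.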

How the results depend on the processing

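The order of genes depended on the probe that stands for a gene: of the 100 brightest, 66 stayed among the 100 with the mean of all probes, 61 with the dimmest probe and 37 when only genes with several probes all above background were ranked; the last 2 were chosen after seeing the data. The order of lists moved too: the median percentile changed by more than the spread between arrays in 52 of 60 lists with the dimmest probe, 38 with the mean of all probes and 10 with normexp background. With the dimmest probe it went from 98.9 to 95.1 for glycolysis, which then lay below the respiratory chain, cytosolic ribosomal proteins (97.5) and the tricarboxylic acid cycle (95.9), from 93.7 to 86.5 for Purkinje cells, from 96.6 to 86.5 for calcium signalling and from 78.5 to 61.4 for postsynaptic genes, but from 98.3 to 98.8 for the respiratory chain and from 96.2 to 94.3 for granule neurons. Leaving out 1 array kept 95 to 98 of the 100 brightest genes, and 15505 to 15548 genes above background. With every probe tested in place of 1 per gene, the lettered pair differed from the Derlin-1 vehicle pair at 7058 probes and from the Derlin-2 pair at 7442, and with 4PBA the counts were 50 for Derlin-2 against Derlin-1 and 7604 for lettered against numbered Derlin-1. More probes were tested there than genes. With only the 12 control arrays in the fit, Derlin-2 and Derlin-1 vehicle controls differed in 24 genes; the cause was not tested.

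Leaving out 1 array, with the lone array left assumed to vary like the others, gave 20 to 71 calls for Derlin-2 against Derlin-1 vehicle controls, 2854 to 3221 for lettered against numbered Derlin-1, and 2368 to 4159 for Derlin-2 against lettered. With 4PBA the ranges were 46 to 86, 2843 to 4013 and 2766 to 3646. A replicate block gave 49, 4324 and 4484 calls for the 3 comparisons without 4PBA and 34, 4835 and 4739 with it, none over 1.5 times from the unblocked count; same-numbered arrays correlated at 0.077 in their deviations for the vehicle controls and -0.054 for those with 4PBA. No direction of a named gene turned in the alternatives run. Of 56 changes named by the rule, the block left 7 short of the threshold, the fit of 12 control arrays 10, normexp background 3, quantile normalization 3, no filter 4 and the deposited values, with spots marked as outliers kept, 2.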
